A study of Oncorhynchus mykiss with 6 samples.

Results

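Small leucine-rich proteoglycans (SLRPs) are secreted proteins of the extracellular matrix. Their genes were followed in the dorsal skin of rainbow trout (Oncorhynchus mykiss) at 1 day and at 90 days of age. Genes were taken by symbol: every row of the deposited gene table whose symbol, without regard to case or copy ending, was dcn, bgn, lum, fmod, ogn, kera, omd, prelp, aspn or epyc. This gave 23 of 43862 gene rows. They covered 9 of the 10 symbols, and OMD was not analysed here. LUM had 3 rows, DCN 2, BGN 2, ASPN 1, kera 4, FMOD 2, PRELP 2, OGN 4 and EPYC 3. Copies of a gene are told apart by the NCBI gene number printed after the symbol, as deposited.

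All 6 libraries, those of the younger age included, came from fish with the yellow mutant phenotype, so ages are compared and colours are not. There were 3 libraries of day 1 and 3 of day 90, each of total RNA extracted with Trizol from frozen dorsal skin. The labels do not say whether the replicates were separate fish or pools of fish, so the p-values rest on the spread among these samples alone, and that spread may be technical. Neither the mutated gene nor the genetic background is stated in the sources used here. In bulk tissue, fewer cells of a type and less RNA per cell cannot be told apart.

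SLRPs have a protein core built of leucine-rich repeats, and most bear chains of chondroitin, dermatan or keratan sulfate. Many bind collagen fibrils and influence their diameter and spacing, and several also bind growth factors of the TGF-beta family. In mammals they fall into classes by sequence: decorin, biglycan and asporin form class I, lumican, keratocan, fibromodulin, osteomodulin and prolargin class II, and osteoglycin and epiphycan class III. Decorin and lumican are abundant in mammalian dermis, and epiphycan is known chiefly from cartilage. Ancestors of the salmonids underwent an additional whole-genome duplication, and many of their genes are kept as pairs of copies.

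Total counts ran from 16157312 to 18960866 per library. Between 0.131% and 0.179% of a day 1 library came from SLRP genes, and between 0.784% and 0.881% of a day 90 library. The make-up of the tissue differed widely between the ages, and this was so before any SLRP gene is considered. Lens and retina markers summed to 1903 to 2448 FPKM at day 1 and to 3.43 to 4.68 FPKM at day 90. At day 90, 21 of the 41 rows of this list were at 0 in all libraries. The cornea genes of the list matched no row. FPKM is a level scaled by the length of the gene and the size of the library. Neural markers summed to 1048 to 1191 FPKM at day 1 and 370 to 435 at day 90. Much of that day 90 sum came from STMN2 110488175, at 151 to 164 FPKM, and STMN2 110496405, at 76.5 to 92.7 FPKM. Both carry the product name stathmin-like, and at day 1 they stood at 201 to 222 and 272 to 332 FPKM. Dermal fibroblast markers summed to 1474 to 2066 FPKM at day 1 and 14902 to 15953 at day 90. Epidermis markers, the defining markers of skin, were present at both ages, at 3974 to 4029 FPKM and 13519 to 17079 FPKM. Day 90 replicate 1 stood apart from the other libraries of its age. Its cartilage markers summed to 307 FPKM against 163 and 178, its muscle markers to 7896 against 2295 and 2151, and the osteocalcin gene bglap 110486465 reached 27.4 FPKM against 2.84 and 2.27. Day 1 replicate 3 also differed from the other libraries of its age. Its cartilage markers summed to 1193 FPKM against 2025 and 1921, and its muscle markers to 18731 against 14891 and 15560. The part of these differences in tissue in the SLRP results was not tested.

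Most SLRP genes were higher at 90 days, and the 3 genes named EPYC were lower. Of the 23 genes, 21 passed the filter (3 or more libraries with an FPKM of 1 or higher) and were tested. By edgeR's quasi-likelihood test, with an adjusted p under 0.05 over all 29436 genes tested, 15 were higher at day 90, 5 were lower and 1 did not pass the threshold. Over all genes tested 67.9% were called, 32.5% as higher and 35.4% as lower. The median log2 fold change was 2.65 over the 21 SLRP genes tested and -0.03 over all genes tested. In 19 of the 21 the FPKM of the 3 day 90 libraries did not overlap those of the 3 day 1 libraries, which held for 75.2% of all genes tested, in either direction. A tested gene had to reach the filter in enough libraries of either age, and 3 of the 21 had a mean under 1 FPKM at the other age. These were BGN 110492263 (0.77 FPKM at day 1), Epyc 110494055 (0.45 FPKM at day 90) and kera 110490858 (0 FPKM at day 90). For such genes the filter itself favours the direction found, so their calls do not stand as separate support for it.

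The scale on which libraries were compared affected these numbers. TMM factors, which align the bulk of the genes, were 1.104 to 1.164 for the day 1 libraries and 0.8265 to 0.9158 for the day 90 libraries, so that a fitted log2 fold change lies above the log2 ratio of the mean FPKM. With library size alone the median of all genes moved from -0.03 to -0.42, and with counts scaled to the epidermis markers to -1.59. SLRP genes then counted 14 higher and 6 lower, and 12 higher and 7 lower, beside the 15 and 5 with TMM. Of all genes tested, library size alone gave 20.5% higher and 50.1% lower, and the epidermis scaling 5.42% higher and 85.1% lower.

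**Figure D1:**
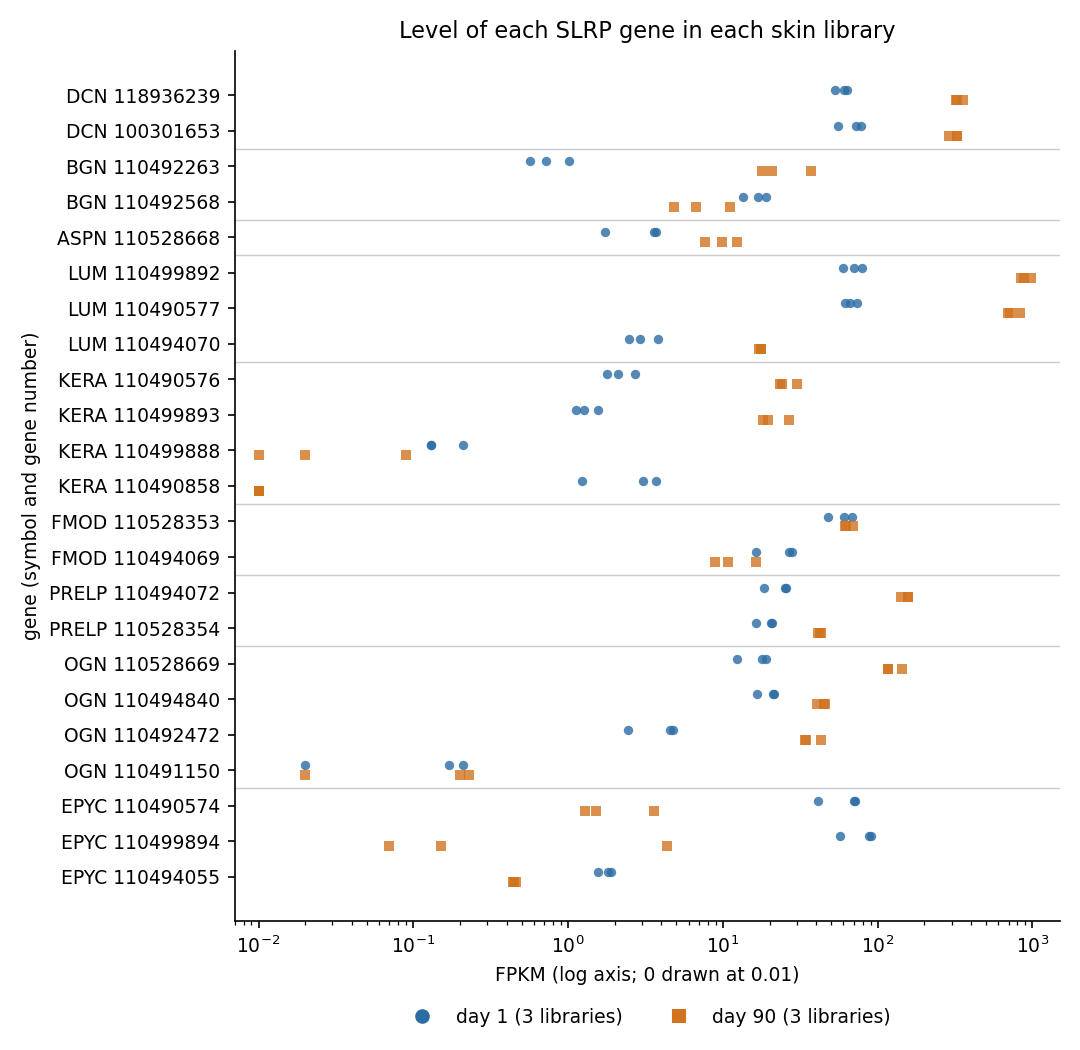
FPKM of each of the 23 SLRP genes in each library, on a log axis, with circles for the 3 day 1 libraries and squares for the 3 day 90 libraries. Both abundant LUM genes span 59.5 to 79.4 FPKM at day 1 and 699 to 980 at day 90, the paired EPYC genes span 41.3 to 90 and 0.07 to 4.37, and both FMOD genes overlap between the ages.

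In class I, both decorin genes rose. Decorin binds collagen I fibrils and carries a single chondroitin or dermatan sulfate chain. DCN 118936239 stood at 63.1, 60.4 and 52.8 FPKM in day 1 replicates 1, 2 and 3 and at 319, 358 and 323 FPKM in the same order of day 90 replicates. DCN 100301653 stood at 72.6, 78.2 and 55.2 FPKM and at 287, 323 and 323 FPKM. The ages were far apart in both genes and the libraries of an age close together. The log2 fold changes of day 90 over day 1 were 2.89 ± 0.14 (SE) for DCN 118936239 and 2.65 ± 0.14 for DCN 100301653 (edgeR, adjusted p = 2.2e-07 and 3.4e-07).

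Biglycan, a class I member that in mammals bears a pair of chondroitin or dermatan sulfate chains and is found in bone and skin, had copies that moved in opposite directions. BGN 110492263, named bgna in RefSeq, rose from 1.02, 0.72 and 0.57 FPKM to 17.9, 20.7 and 37.3 FPKM. Its log2 fold change of 5.41 ± 0.31 was the largest rise among the SLRP genes tested (edgeR, adjusted p = 5.4e-07). With a mean of 0.77 FPKM at day 1, this copy passed the filter through its day 90 libraries, which favours a rise. Its highest value was in day 90 replicate 3. BGN 110492568, named bgnb in RefSeq, stood at 19, 16.8 and 13.5 FPKM at day 1 and at 11.1, 4.81 and 6.68 FPKM at day 90. The ages did not overlap, and day 90 replicate 1 lay nearest to day 1. Its log2 fold change was -0.74 ± 0.28 (edgeR, adjusted p = 0.041). That call lay near the threshold. It was lost without day 1 replicate 1 (-0.63, adjusted p = 0.12), day 1 replicate 2 (-0.73, adjusted p = 0.088), day 90 replicate 2 (-0.52, adjusted p = 0.098) or day 90 replicate 3 (-0.67, adjusted p = 0.093), while the direction stayed the same. Without day 90 replicate 1 the value was -1.19 (adjusted p = 0.00023).

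Asporin, also of class I, is named for a stretch of aspartic acid and in mammals binds collagen and TGF-beta. ASPN 110528668 rose from 3.59, 3.72 and 1.74 FPKM to 7.71, 9.81 and 12.3 FPKM, 2.1 ± 0.25 on the log2 scale (edgeR, adjusted p = 5.6e-05). The annotation of assembly USDA_OmykA_1.1 places it within the span of another protein-coding gene, cenpp, which it shares with OGN 110528669. Nothing in the sources used here says whether counting used strand, so reads of overlapping genes may not have been told apart.

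In class II, lumican had the largest gain in FPKM of all symbols. Lumican regulates collagen fibrils in mammalian skin and cornea. LUM 110499892 stood at 79.4, 69.9 and 59.5 FPKM at day 1 and at 876, 980 and 843 FPKM at day 90. LUM 110490577 stood at 73.5, 66.1 and 61.7 FPKM and at 716, 826 and 699 FPKM. Every day 90 library lay far above every day 1 library in both genes. The log2 fold changes were 4.08 ± 0.17 and 3.86 ± 0.16 (edgeR, adjusted p = 1.0e-07 and 9.4e-08). Ranked by mean FPKM among all gene rows, LUM 110499892 went from place 943 to place 93 and LUM 110490577 from 969 to 138. LUM 110494070, which RefSeq lists as zgc:113307, was far less abundant, at 2.9, 3.83 and 2.49 FPKM and at 17.6, 17.6 and 17.1 FPKM. It rose too, by 2.88 ± 0.15 on the log2 scale (edgeR, adjusted p = 3.4e-07).

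Keratocan is a keratan sulfate proteoglycan best known from the cornea in mammals. kera 110490576 rose from 2.71, 2.11 and 1.79 FPKM to 23.3, 30.2 and 24.2 FPKM, and kera 110499893 from 1.55, 1.27 and 1.13 FPKM to 19.6, 26.7 and 18.1 FPKM. The log2 fold changes were 3.93 ± 0.17 and 4.39 ± 0.19 (edgeR, adjusted p = 1.1e-07 and 1.3e-07). These rises stood beside a fall of the lens and retina markers. Of the 33 tested genes of that list 32 were lower at day 90, against 35.4% of all genes tested, and none was higher. No cornea marker was among its rows, so these values do not cover cornea markers. The remaining rows with this symbol carry other product names. kera 110490858, with the product name titin-like, was at 3.06, 3.68 and 1.23 FPKM at day 1 and had no count in any day 90 library. Taking 3 counts in the summed day 90 libraries as the floor, it was at least 125-fold lower (edgeR, adjusted p = 7.6e-05). kera 110499888, with a product name of extracellular matrix protein 2-like, stayed at or under 0.21 FPKM in every library and was not tested.

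Fibromodulin, a class II keratan sulfate proteoglycan that binds collagen I and is prominent in mammalian tendon, had the summed level that moved least in FPKM, at 82.3 ± 17 and 76.4 ± 2.5 FPKM (SD, n = 3). Fmod 110528353, fmoda in RefSeq, stood at 68, 60.2 and 47.6 FPKM at day 1 and at 61.6, 68.8 and 62.6 FPKM at day 90, so the ages overlapped. Its log2 fold change was 0.53 ± 0.14 with TMM (edgeR, adjusted p = 0.0074), but 0.14 with library size alone (adjusted p = 0.4) and -1.02 with the epidermis scaling (adjusted p = 0.0003), so its direction depended on the scale. In the authors' deposited table its log2 value was 0.13 and its FDR (false discovery rate) 0.00042. Fmod 110494069 stood at 28, 26.6 and 16.3 FPKM and at 16.3, 8.85 and 10.8 FPKM. The ages overlapped because day 1 replicate 3 and day 90 replicate 1 both read 16.3. This was the tested SLRP gene that did not pass: its log2 fold change was -0.57 ± 0.26 (adjusted p = 0.081, edgeR). It passed as lower under 9 of 15 alternatives. Among these were library size alone (-0.97, adjusted p = 0.0083), the epidermis scaling (-2.09, adjusted p = 7.2e-05) and DESeq2 (-0.60, adjusted p = 0.037). So were the fits without day 1 replicate 3 (-0.76, adjusted p = 0.033) and without day 90 replicate 1 (-0.93, adjusted p = 0.0031).

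Prolargin, encoded by PRELP, anchors basement membranes to the underlying connective tissue in mammals. PRELP 110494072 rose from 25.5, 25.2 and 18.3 FPKM to 158, 156 and 141 FPKM (log2 fold change 3.11 ± 0.16, edgeR adjusted p = 2.9e-07). PRELP 110528354 went from 20.8, 20.3 and 16.3 FPKM to 43.1, 42.2 and 40.9 FPKM, a log2 fold change of 1.53 ± 0.12 with TMM (edgeR, adjusted p = 3.9e-06) that became -0.02 with the epidermis scaling (adjusted p = 0.93). The copies were at like levels at day 1 and well apart at day 90.

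In class III, osteoglycin rose in every tested copy with TMM, and in all but OGN 110494840 with the epidermis scaling. Osteoglycin, also called mimecan, is a small keratan sulfate proteoglycan of connective tissue and cornea in mammals. OGN 110528669, ogna in RefSeq, went from 18.9, 17.8 and 12.3 FPKM to 117, 144 and 116 FPKM (log2 fold change 3.33 ± 0.18, edgeR adjusted p = 4.0e-07). OGN 110492472, ognb in RefSeq, went from 4.75, 4.53 and 2.42 FPKM to 43, 34.3 and 34.1 FPKM (log2 fold change 3.65 ± 0.23, edgeR adjusted p = 1.1e-06). It overlaps another protein-coding gene, SMIM4 110492474, in that annotation. Both genes kept every day 90 library above every day 1 library. OGN 110494840 went from 21.2, 21.4 and 16.6 FPKM to 45.2, 45.7 and 40.6 FPKM, with a log2 fold change of 1.54 ± 0.13 with TMM (edgeR, adjusted p = 6.3e-06) and -0.0017 with the epidermis scaling (adjusted p = 0.99). Ogn 110491150, with the product name extracellular matrix protein 2-like, stayed at or under 0.23 FPKM and was not tested.

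The rows named EPYC fell. Both members of the abundant pair carry the product name leucine-rich repeat protein soc-2 homolog, which is not epiphycan, so they are called here by their deposited symbol. EPYC 110490574 stood at 71.4, 70.7 and 41.3 FPKM at day 1 and at 3.61, 1.52 and 1.29 FPKM at day 90. EPYC 110499894 stood at 90, 87.5 and 57.3 FPKM and at 4.37, 0.07 and 0.15 FPKM. At day 1 these levels were like those of the LUM and DCN genes. At day 90 the highest value of either gene was in replicate 1. The log2 fold changes were -4.41 ± 0.40 and -5.19 ± 0.98 (edgeR, adjusted p = 9.5e-06 and 0.0011), and without day 90 replicate 1 they were -5.10 and -9.13. Each of the pair overlaps another annotated protein-coding gene. Epyc 110494055 bears the product name epiphycan-like, although RefSeq gives it the symbol optc, that of opticin. It was at 1.55, 1.81 and 1.89 FPKM and at 0.44, 0.46 and 0.45 FPKM (log2 fold change -1.57 ± 0.25, edgeR adjusted p = 0.00039).

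Summed over all 23 genes, the SLRP level was 673, 643 and 482 FPKM in the day 1 libraries and 2788, 3099 and 2750 FPKM in the day 90 libraries. The means were 599 ± 103 and 2879 ± 192 FPKM (SD, n = 3), and no libraries overlapped. The difference of the mean log2 sums was 2.28. An exact two-sided permutation test gave p = 0.1, the smallest that 3 against 3 libraries allow.

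The make-up of that sum changed from 4 symbols with large shares to a lumican majority. At day 1 LUM took 23.5 ± 2% of the summed FPKM, EPYC 23.3 ± 2.2%, DCN 21.4 ± 1.1% and FMOD 13.7 ± 0.54% (SD, n = 3). At day 90 LUM took 57.7 ± 1.1%, with the libraries between 56.7% and 58.8%. EPYC took 0.146 ± 0.14% and FMOD 2.66 ± 0.14%. For LUM, EPYC and FMOD every day 1 share lay apart from every day 90 share. DCN, by contrast, took 22.4 ± 0.93% at day 90, and its ages overlapped, as did those of PRELP, at 7.04 ± 0.16% and 6.74 ± 0.41%. OGN took 6.68 ± 0.16% and 7.18 ± 0.24%, and BGN 2.87 ± 0.13% and 1.15 ± 0.4%. kera took 1.04 ± 0.13% and 1.64 ± 0.17%, and ASPN 0.491 ± 0.11% and 0.347 ± 0.089%. These shares add to the whole in each library, so a rise in one lowers the others, and they do not depend on the scaling between libraries.

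**Figure D2:**
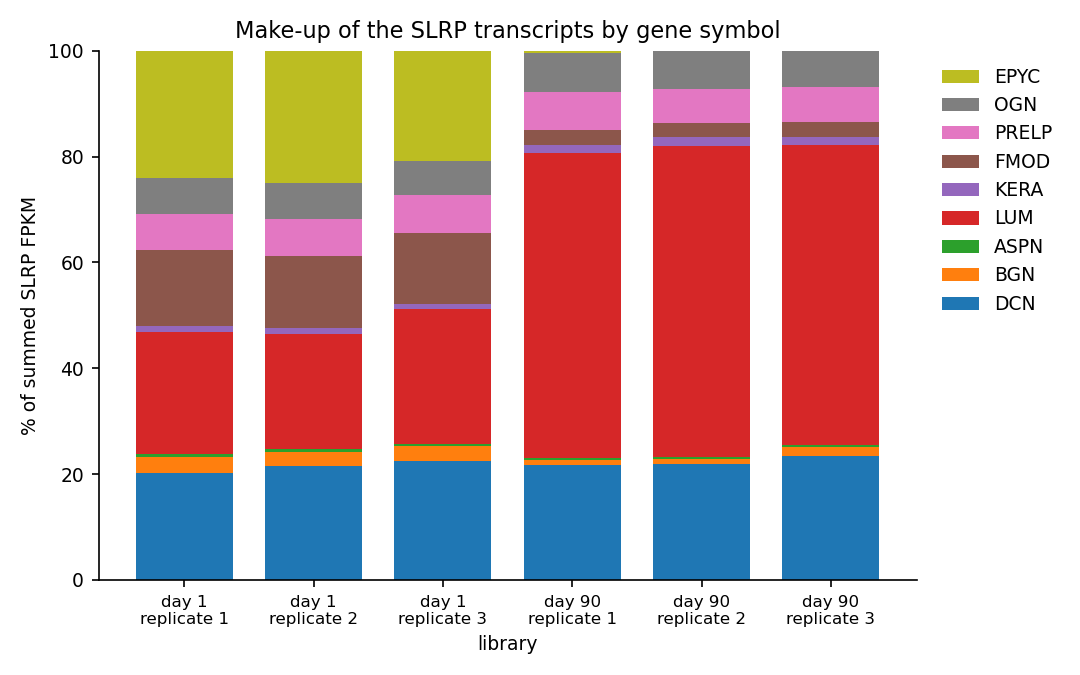
Share of the summed SLRP FPKM taken by each gene symbol, in percent, as 1 stacked bar per library. LUM fills 21.7% to 25.6% of the day 1 bars and 56.7% to 58.8% of the day 90 bars, EPYC 20.8% to 24.9% and at most 0.302%, and DCN 20.2% to 23.5% of all 6 bars.

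Set against collagen I, the main fibrillar collagen of dermis, the family as a whole was lower at day 90. These within-library ratios were chosen after values had been seen. The 7 collagen I genes summed to 1685 ± 279 FPKM at day 1 and 14882 ± 581 FPKM at day 90 (SD, n = 3). The ratio of summed SLRP FPKM to collagen I FPKM was 0.347, 0.372 and 0.348 at day 1 and 0.192, 0.199 and 0.189 at day 90. LUM went the other way, from 0.0803, 0.0809 and 0.0892 to 0.111, 0.117 and 0.107 of the collagen I level. DCN went from 0.0699, 0.0801 and 0.0779 to 0.0417, 0.0438 and 0.0443. The summed decorin level thus rose less than that of collagen I in these libraries, and the summed lumican level more. This did not hold for each lumican gene: LUM 110494070 rose by 2.88 on the log2 scale, against 3.70 for COL1A1 110503033. The LUM to DCN ratio was 1.1 ± 0.079 at day 1 and 2.58 ± 0.14 at day 90, and the FMOD to LUM ratio 0.585 ± 0.059 and 0.0461 ± 0.003. The PRELP to OGN ratio moved least, from 1.05 ± 0.042 to 0.938 ± 0.048. None of these 6 ratios overlapped between the ages, and each had p = 0.1, the smallest the exact two-sided permutation test allows, before and after adjustment over the 6.

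The balance between copies of a gene was compared between the ages. For each pair of copies with a mean of at least 1 FPKM at either age, the log2 ratio of their counts was taken within each library, a value that does not depend on the scaling between libraries. Of 16 pairs, 15 had ratios that did not overlap between the ages. The exact two-sided permutation p of each of those pairs was 0.1, the smallest possible, and 0.107 after adjustment over the pairs. No pair passed 0.05, which 3 against 3 libraries cannot reach, and the share of non-overlapping ratios among other pairs of genes was not computed. FPKM of single genes did not overlap in 75.2% of all genes tested. A ratio of counts also holds the lengths of both genes, so only its change between ages is compared.

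The biglycan pair moved most among pairs in which both copies keep the product name of their symbol. The log2 ratio of BGN 110492263 to BGN 110492568 was -4.27, -4.59 and -4.56 at day 1 and 0.68, 2.08 and 2.42 at day 90, a change of 6.20. Without day 90 replicate 1, the library with the lowest of those day 90 ratios, the change was 6.72. OGN 110528669 gained on OGN 110494840 by 1.80 on the log2 scale, from a mean of -0.72 ± 0.14 to 1.08 ± 0.14 (SD, n = 3). The ratio of OGN 110494840 to OGN 110492472 changed by -2.14, from 3.18 ± 0.34 to 1.03 ± 0.17. PRELP 110494072 gained 1.59 on PRELP 110528354, from 0.16 ± 0.07 to 1.75 ± 0.06, and Fmod 110528353 gained 1.14 on Fmod 110494069, from 1.57 ± 0.19 to 2.71 ± 0.52. These shifts were several times the spread between libraries of an age for OGN and PRELP.

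Between the 2 most abundant copies of lumican, of decorin and of keratocan the shifts were smaller. LUM 110499892 gained 0.22 on LUM 110490577, with ratios of 0.07, 0.04 and -0.09 at day 1 and 0.25, 0.21 and 0.23 at day 90. DCN 118936239 gained 0.23 on DCN 100301653, and kera 110490576 lost ground to kera 110499893, with a change of -0.43. The remaining copies of these symbols moved further: the ratios of LUM 110499892 and LUM 110490577 to LUM 110494070 changed by 1.19 and 0.97, and those of kera 110490576 and kera 110499893 to kera 110490858, a row at 0 at day 90, by 11.77 and 12.20. How reads that match both copies of a pair were assigned is not stated in the sources used here, so small shifts between near-identical copies are uncertain. The pair of OGN 110528669 and OGN 110492472 was the exception to the count above, with ratios that overlapped between the ages (change -0.34, or -0.18 without day 90 replicate 1, exact two-sided permutation p = 0.3, also after adjustment). The EPYC pair was evenly balanced in day 90 replicate 1, at -0.30, as at day 1, at -0.35, -0.32 and -0.49, but stood at 4.20 and 3.01 in day 90 replicates 2 and 3. The EPYC 110499894 counts behind those last ratios were only 3 and 6. The mean change of 2.69 became 3.99 without day 90 replicate 1 and 1.74 without day 90 replicate 2. The ratios of EPYC 110490574 and EPYC 110499894 to Epyc 110494055 changed by -3.02 and -5.71.

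**Figure D3:**
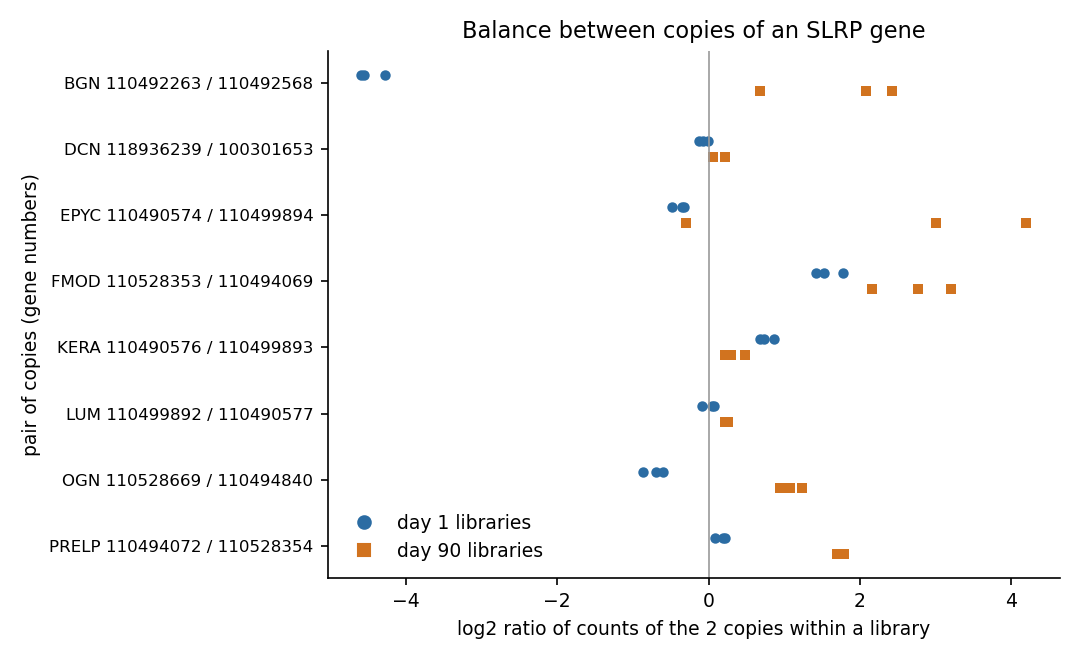
Log2 ratio of the counts of a pair of copies within each library, 1 pair per symbol, with circles for day 1 and squares for day 90. The biglycan pair moves from about -4.5 to between 0.68 and 2.42, the OGN and PRELP pairs shift by 1.80 and 1.59, the LUM and DCN pairs by 0.22 and 0.23, and the EPYC pair has 1 day 90 library at -0.30 beside the day 1 libraries.

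Several of the genes are neighbours in the genome, and neighbours did not always move together. By the order of protein-coding genes in assembly USDA_OmykA_1.1 EPYC, kera, LUM and DCN follow each other in a pair of clusters that mirror each other, with a further row named kera at the DCN end. In the first, EPYC 110490574 fell by 4.41 on the log2 scale while its neighbours kera 110490576, LUM 110490577 and DCN 118936239 rose by 3.93, 3.86 and 2.89. In the second, EPYC 110499894 fell by 5.19 while kera 110499893, LUM 110499892 and DCN 100301653 rose by 4.39, 4.08 and 2.65. Within a library the count of EPYC 110490574 went from near that of LUM 110490577, at log2 ratios of -0.29, -0.15 and -0.82, to far under it, at -7.88, -9.31 and -9.31. In both clusters the fitted rise was largest in kera, then LUM, then DCN. The fits of kera and LUM differed by less than their SE in the first cluster. In the second cluster those fits were 4.39 ± 0.19 and 4.08 ± 0.17, and the order of kera and LUM was not tested.

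Other runs of neighbours differed in size or in direction. PRELP 110494072, next to LUM 110494070 and close to Fmod 110494069, gained 3.72 on that Fmod gene on the log2 scale of count ratios, while PRELP 110528354 gained 0.99 on its neighbour Fmod 110528353. OGN 110528669 gained 1.19 on its neighbour ASPN 110528668. BGN 110492263 lies beside ECM2 110492264, a leucine-rich matrix gene that fell from 6.98, 6.47 and 2.41 FPKM to 0.74, 0.18 and 0.33 FPKM (log2 fold change -3.22 ± 0.51, edgeR adjusted p = 0.00039). ECM2 110492264 passed the filter through day 1 alone, and was chosen both as a neighbour and by the rule for its list. ECM2 110511384 lies beside OGN 110494840, and both rose with TMM, by 3.68 and 1.54 on the log2 scale. ECM2 110528666, beside ASPN 110528668, did not pass the threshold (log2 fold change 0.57 ± 0.31, edgeR adjusted p = 0.13).

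**Figure D4:**
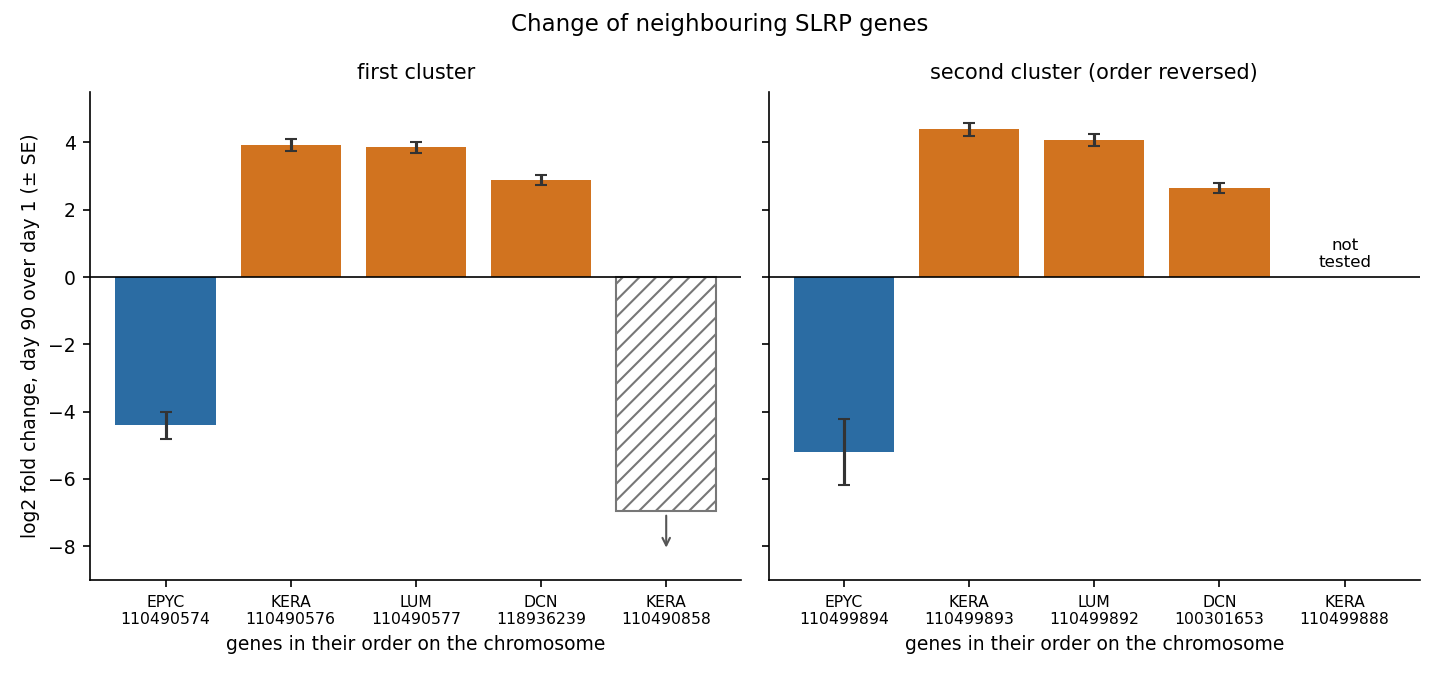
Log2 fold change of day 90 over day 1 with its SE for the genes of the mirrored clusters, drawn in the same gene order, with equal spacing in place of distance. EPYC stands at -4.41 and -5.19 where kera, LUM and DCN stand at 2.65 to 4.39, and the hatched bar with an arrow is the lower bound of the fall of kera 110490858, at least 125-fold.

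EPYC levels were set beside cartilage markers because epiphycan is known from cartilage. Of 29 tested cartilage markers, 20 were lower at day 90, beside 35.4% of all genes tested. The list had 3 higher, beside 32.5% of all genes tested, and 6 that did not pass, with a median log2 fold change of -2.53. Of the 3 that were higher, COL2A1 110497058 and COL2A1 110527301 carry the product name of collagen alpha-2(V), a collagen of skin. The other, MATN1 110485234, carries that of matrilin-2. The summed level of the list was 1193 to 2025 FPKM at day 1 and 163 to 307 FPKM at day 90, and 2 of its 31 rows were at 0 in all day 90 libraries. COL2A1 110532038, a gene of the main cartilage collagen and the highest marker of the list at day 1, stood at 296, 284 and 193 FPKM and at 23.6, 0.22 and 0.15 FPKM at day 90. MATN1 110496845, which encodes a cartilage matrix protein, stood at 152, 147 and 49.8 FPKM and at 42.6, 0.07 and 0.03 FPKM. This MATN1 gene did not pass the threshold (log2 fold change -2.53 ± 1.51, edgeR adjusted p = 0.16). COL9A1 110499369, a chain of the cartilage collagen IX, was at 217, 208 and 143 FPKM and at 0.06, 0.02 and 0.05 FPKM. Of the 31 rows, 28 had their lowest day 1 value in replicate 3 and 21 their highest day 90 value in replicate 1. The pair of EPYC genes, Fmod 110494069 and BGN 110492568 had the same lowest day 1 library and the same highest day 90 library. That order was not particular to genes with lower values at day 90: of the 23 SLRP genes, 21 were lowest of day 1 in replicate 3 and 9 were highest of day 90 in replicate 1, among them both PRELP genes and OGN 110492472, which rose with TMM (PRELP 110528354 not with the epidermis scaling). The part of cartilage in these results was not tested. The markers named here were chosen after their values were seen.

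**Figure D5:**
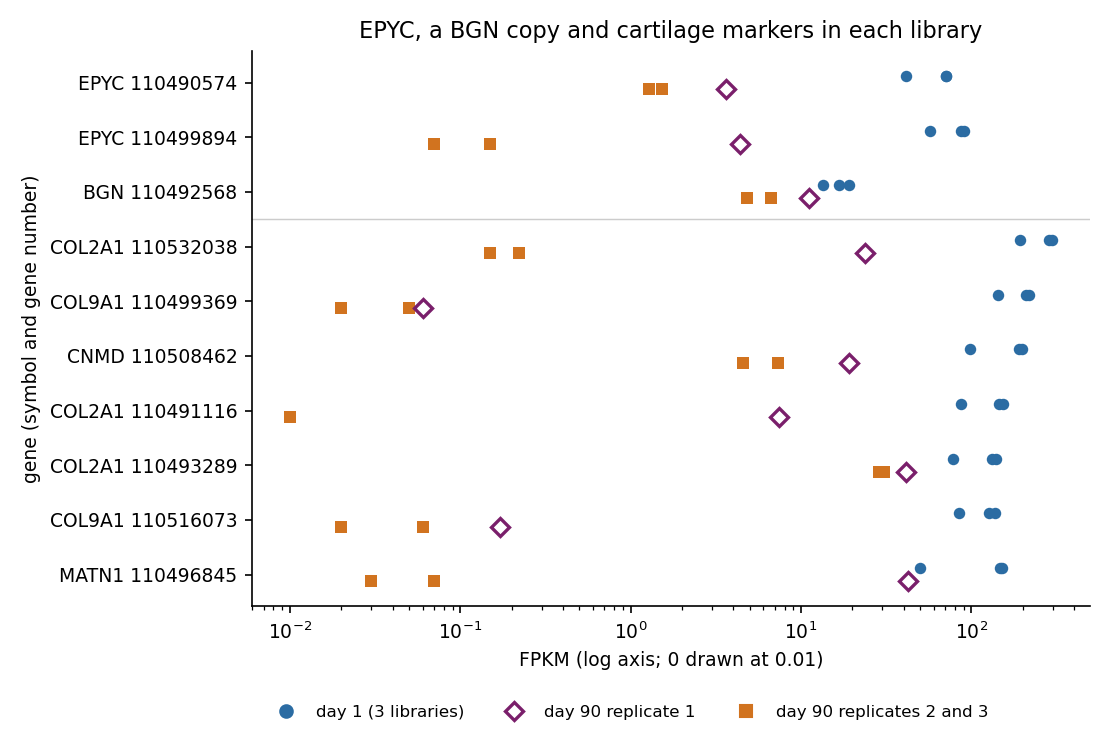
FPKM, on a log axis, of the EPYC pair, BGN 110492568 and, under the line, the 7 cartilage markers highest at day 1, with circles for day 1, diamonds for day 90 replicate 1 and squares for day 90 replicates 2 and 3. In each gene drawn the diamond is the highest day 90 value, by a wide margin in EPYC 110499894 (4.37 FPKM against 0.07 and 0.15) and MATN1 110496845 (42.6 against 0.07 and 0.03) and by little in COL9A1 110499369 (0.06 against 0.02 and 0.05).

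Other leucine-rich proteoglycans related to these genes also rose for the most part. Of 11 tested, 7 were higher, 2 were lower and 2 did not pass, with a median log2 fold change of 1.65 against -0.03 over all genes tested. The shares of all genes tested were 32.5% higher and 35.4% lower. PODN 110520995, which encodes podocan, rose from 0.07 FPKM in each day 1 library to 6.23, 7.75 and 6.55 FPKM (log2 fold change 6.96 ± 0.21, edgeR adjusted p = 2.2e-08). This gene passed the filter through day 90 alone, which favours a rise. ECM2 110511384 rose by 3.68 ± 0.19 on the log2 scale.

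The collagens to which SLRPs bind were higher at day 90 in 31 of 43 tested genes and lower in 8, with a median log2 fold change of 2.05. Among all genes tested, 32.5% were higher and 35.4% lower. COL6A3 110519979, a chain of the beaded-filament collagen VI, rose from 3.12 ± 0.35 to 78.3 ± 8.9 FPKM (SD, n = 3), with a fitted log2 change of 5.03 ± 0.16 (adjusted p = 3.3e-08, edgeR). COL6A3 118955550 rose by 5.56 ± 0.50, from 0.0433 ± 0.029 to 1.75 ± 0.97 FPKM, and passed the filter through day 90 alone. Col11a1 110490894, a chain of the cartilage collagen XI, fell from 4.6, 4.63 and 1.39 FPKM to 0.62, 0 and 0.05 FPKM (log2 fold change -3.56 ± 0.84, edgeR adjusted p = 0.0043). It passed the filter through day 1 alone.

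Genes that build the sugar chains of SLRPs were read against the 32.5% of all genes tested that were higher and the 35.4% that were lower. For chondroitin and dermatan sulfate synthesis, 10 of 40 tested genes were higher, 14 were lower and 16 did not pass, with a median log2 fold change of -0.02. For keratan sulfate synthesis, 12 of 33 were higher, 11 were lower and 10 did not pass, with a median of 0.03. Both medians lay near the -0.03 of all genes tested. DSEL 110509115, a relative of the epimerase that makes dermatan sulfate, rose by 3.29 ± 0.21 on the log2 scale, from 0.18 ± 0.03 to 1.36 ± 0.076 FPKM. It passed the filter through day 90 alone. chst14 110521680, the dermatan 4-O-sulfotransferase gene, rose by 1.73 ± 0.14, from 5.09 ± 0.64 to 12.9 ± 0.86 FPKM. Csgalnact1 110536326, which starts chondroitin chains, had a change of -2.60 ± 0.59 and passed the filter through day 1 alone. Among the keratan sulfate genes, the sulfotransferase gene chst1 110497842 rose by 2.58 ± 0.26 and B3GNT2 110486007, which extends poly-N-acetyllactosamine, by 2.49 ± 0.25. The chst1 gene went from 0.31 ± 0.061 to 1.44 ± 0.27 FPKM and passed the filter through day 90 alone. B3GNT7 110492214, another gene of keratan sulfate extension, had a change of -4.29 ± 0.63 and stood at or under 0.15 FPKM at day 90. It passed the filter through day 1 alone. All 6 passed the edgeR test, with adjusted p of 8.9e-07, 4.4e-06, 0.0034, 1.8e-05, 1.8e-05 and 0.00023 in the order given.

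Of the growth factors and receptors known to interact with SLRPs, 24 of 41 tested genes were higher, 8 were lower and 9 did not pass, with a median log2 fold change of 0.87. The shares over all genes tested, also for the proteases below, were 32.5% higher and 35.4% lower. The largest rises were in CCN2 110492037, whose product name is that of a related protein, WNT1-inducible-signaling pathway protein 2, at 3.34 ± 0.20 (edgeR, adjusted p = 8.0e-07), and CCN2 110532630, a connective tissue growth factor gene, at 3.11 ± 0.35 (adjusted p = 3.8e-05). Their means were 0.517 and 0.333 FPKM at day 1 and 4.03 and 2.18 FPKM at day 90. Both CCN2 genes passed the filter through day 90 alone. MET 110532382, a gene of the hepatocyte growth factor receptor, to which decorin binds in mammals, changed by -2.25 ± 0.32 (adjusted p = 0.00018). The MET gene passed the filter through day 1 alone. The list of proteases that process or cleave SLRPs also holds PCOLCE genes, which encode enhancers of such proteases. Of its 19 tested genes 16 were higher, 2 were lower and 1 did not pass, with a median of 1.59. Mmp14 110508483, a membrane-bound metalloproteinase gene, rose from 14.9 ± 3.6 to 84.7 ± 2.3 FPKM and MMP2 110526614, a gelatinase gene, from 47.9 ± 12 to 232 ± 8.9 FPKM (log2 fold changes 2.89 ± 0.18 and 2.67 ± 0.19). mmp13 100136017, a collagenase gene, changed by -1.64 ± 0.31 (edgeR, adjusted p = 0.0013).

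Markers of other tissues were read beside these results, and beside the 32.5% of all genes tested that were higher and the 35.4% that were lower. Of 29 tested dermal fibroblast markers, 24 were higher, none was lower and 5 did not pass, with a median log2 fold change of 1.73. COL1A1, COL1A2 and COL3A1 are on both this list and that of the collagens. DPT 110524056, the gene of dermatopontin, a decorin-binding matrix protein, rose from 5.19 ± 0.83 to 117 ± 10 FPKM and COL1A1 110503033 from 221 ± 14 to 2208 ± 147 FPKM (log2 fold changes 4.88 ± 0.15 and 3.70 ± 0.17). Tendon markers were higher in 4 of 13 tested genes and lower in 5, both near the shares of all genes tested, with a median of -0.24. Within them TNMD 110488980, the gene of tenomodulin, rose by 3.68 ± 0.22 and thbs4b 110525779 by 5.03 ± 0.22. Another thbs4b copy, thbs4b 110523890, changed by -2.72 ± 0.19, and SCX 110496666, a gene of scleraxis, by -2.09 ± 0.36. SCX 110496666 passed the filter through day 1 alone. SCX 110488046, another scleraxis gene, did not pass the threshold (log2 fold change -0.24 ± 0.26, edgeR adjusted p = 0.43). Bone and scale markers were higher in 5 of 7 and lower in 2, muscle markers were higher in 8 of 31 and lower in 18, neural markers higher in 3 of 27 and lower in 20, and epidermis markers higher in 65 of 93 and lower in 18. The part of any of these tissues in the SLRP levels was not tested.

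The genes whose 6 library values lay nearest to those of the abundant LUM genes were found by Euclidean distance of log2(FPKM + 1) over the 6 libraries, among tested genes outside the family. SERPINH1 100135844, the gene of a chaperone of collagen folding, was nearest to LUM 110499892, at a distance of 0.291, and to LUM 110490577, at 0.425. It stood at 71, 69.6 and 53.7 FPKM at day 1 and at 895, 903 and 758 FPKM at day 90. Crip1 110497625, which encodes a small LIM-domain protein, came second for both, at 0.438 and 0.442. Next came the assembled locus MSTRG.582 for the former, at 0.573, and HEBP2 100305204, a heme-binding protein gene, for the latter, at 0.512.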

How the data were processed

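The deposited table gives, for every gene, a read count and an FPKM in each library, both made by the authors. It also gives the authors' mean FPKM of each age, log2 fold change, p-value and FDR, per the file headers. The submitters' processing notes name Bowtie2 2.2.8 and TopHat2 2.1.1 with no role stated. Neither counting tool, strand use, genome build nor the authors' test is stated in the sources used here. No coordinates or sequences are printed. All 23 genes matched the gene table of USDA_OmykA_1.1, used for names and gene order.

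Groups and replicate numbers came from the sample titles. Counts of the 29436 genes with FPKM of at least 1 in at least 3 of 6 libraries were fitted with edgeR 4.0.16 (R 4.3.3; TMM, quasi-likelihood, age alone), with Benjamini-Hochberg adjustment over all of them, and the script was tested on simulated data. SE is the log2 fold change over the square root of F. Alternatives used other scalings, DESeq2 1.42.0, limma 3.58.1 on log2(FPKM + 1) and log2(FPKM + 0.1), other filters, a replicate block and leaving out each library. Copy ratios used counts plus 0.5. Summed levels and ratios were tested by exact two-sided permutation over libraries. Replicates of an age differed beyond counting noise (median chi-square 1.99 to 9.42 times that expected), and none were identical. Depth ran from 16157312 to 18960866 counts, where 3 counts make up 1.58e-05% to 1.86e-05% of a library; such floors cover counting error only.

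Members, gene lists and tests were chosen with earlier results of these data known. RhoA and RhoB rows, matched by chance to the retina list, were left out after the matches were seen. Named genes were all SLRP genes with a mean of at least 1 FPKM at either age, for each list of related genes the 2 largest rises and the lowest change past the threshold, and for each of the 2 most abundant SLRP genes the 3 nearest patterns. Marker genes named beside a result were chosen after their values were seen. Tested genes with less than 1 FPKM in every library of 1 age passed the filter only through the other age, which sets the direction of their change.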

Additional observations from a re-analysis of the deposited data

How the results depend on the processing

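The counts of higher and lower SLRP genes and the summed level stayed within 1.5 times their value under the alternatives run for each, and the copy ratios kept their direction. Higher genes numbered 12 to 15 and lower genes 4 to 7, both extremes of 12 and 7 coming from the epidermis scaling. With the replicate block 15 were higher and 6 lower. Same-numbered libraries did not deviate together (correlations -0.0657, 0.00581 and -0.0887). No pairing by number was seen, though 3 libraries per age cannot exclude it. The block added Fmod 110494069 as lower (-0.59, adjusted p = 0.035) and changed no other call. Leaving out 1 library at a time gave 15 higher each time and 4 to 6 lower. The summed level had a log2 ratio of 2.21 with TPM, 2.67 with median of ratios and 2.13 to 2.37 with a library left out, where p cannot go below 0.2. The summed level was not computed with the epidermis scaling, so its stability under that scaling is not known. With the epidermis scaling PRELP 110528354 (-0.02), OGN 110494840 (-0.0017) and Fmod 110528353 (-1.02) changed sign. The first 2 of them were near no change and no longer passed the threshold (edgeR, adjusted p = 0.93 and 0.99). That scaling also moved the median log2 fold change of all genes tested, from -0.03 to -1.59. Why the scalings differ was not tested. Of the single-gene and copy-ratio results under alternatives, 406 were unchanged in direction and call. The copy ratios among them could change in direction only, as their exact two-sided permutation p cannot go below 0.1. Another 9 results passed the threshold newly, all of them Fmod 110494069. Beside those that changed sign, 7 no longer passed it, 3 of Fmod 110528353 and 4 of BGN 110492568. Low counts of the gene limit EPYC 110499894 at day 90, with 3 and 6 in replicates 2 and 3.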
